A study of Mus musculus with 16 samples.

Results

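The 6 genes described here, Tmprss4, St14, Prss8, Spint1, Spint2 and Spink5, encode 3 membrane-anchored serine proteases of the epidermis and 3 inhibitors of serine proteases. They were picked by gene name from 22612 genes, with the transcript holding the most ribosome footprints standing for each gene. At least 10 footprints in sum were required to describe footprints, and 5 of the 6 genes had them, Prss8 being the exception with 6. The names were proposed with knowledge that Tmprss4 RNA differed between N1-AcSpd-treated HFSCs and progenitors, so in that comparison the values are given as a description, with no test.

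Cells came from 3D-3C organoid cultures of skin epidermis of C57BL/6J mice, and were sorted into α6+CD34- progenitors and α6+CD34+ hair follicle stem cells (HFSCs). Cultures were left untreated or received N1-acetylspermidine (N1-AcSpd), an acetylated polyamine, for 72 h. All 4 groups share the culture, the strain and the same 2 donor mice, so each group had 2 libraries for RNA-seq and 2 for Ribo-seq, the sequencing of ribosome-protected fragments, or footprints. The labels do not give the age of each donor, and the cells had been cultured before they were sorted, which limits what these groups say of skin.

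Serine proteases anchored in the plasma membrane act in the epidermis in cascades, in which an active protease cleaves the inactive form of the next. Matriptase, encoded by St14, and prostasin, encoded by Prss8, are a well-known pair of this kind and are needed for the epidermal barrier. HAI-1 and HAI-2, the products of Spint1 and Spint2, carry Kunitz domains and block matriptase and prostasin at the cell surface, while LEKTI, the product of Spink5, carries Kazal-type domains and blocks the kallikreins that cut the junctions between cornified cells. TMPRSS4 is a transmembrane serine protease whose role in the epidermis is less well described.

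On GRCm38, Tmprss4 lies on the minus strand of chromosome 9 from 45172726 to 45204092, and St14 on the minus strand of chromosome 9 from 31089402 to 31131853. Prss8 spans 127925716 to 127930104 on the minus strand of chromosome 7, and Spint2 spans 29256323 to 29281912 on the same strand of that chromosome. Spint1 lies on the plus strand of chromosome 2 from 119237362 to 119249527. The start codons of these 5 genes are shown because Ribo-seq reads the use of such sites. They run from 9 bases before the start codon to 4 bases after it on the transcript used, with the start codon in capitals.
Tmprss4: caaagcagtATGgagt
St14: gccaaaaccATGggta
Prss8: tcctaggccATGgccc
Spint1: gggagcacgATGgcgg
Spint2: cagcaggtcATGgcgc
All 5 have a purine 3 bases before the start codon and a G directly after it. Of 19447 kept transcripts with an ATG start, 41.8% have both, so this pattern is common.

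The RNA-seq libraries held 21612795 to 31524062 counts on the kept transcripts and the Ribo-seq libraries 34475 to 268052 footprints, so footprint levels carry far larger counting error. Sorting was checked on marker RNA: Cd34 was 76.8 ± 13.2 CPM (library-scaled counts, SD, n = 2) in untreated HFSCs and 2.94 ± 0.886 CPM in untreated progenitors, and Krt15, a keratin of the bulge, was 720.2 ± 53.1 against 178 ± 16.4 CPM. Of 6 sorting and HFSC identity markers, 5 were higher in untreated HFSCs and 1 was lower, each at an unadjusted p under 0.05 in edgeR's quasi-likelihood test. After adjustment 3 passed, all higher, where 0.148% of all genes passed in either direction. Besides Cd34 and Krt15 this was Nfatc1 (89.5 ± 1.46 against 45.5 ± 0.608 CPM, adjusted p = 0.0267), which did not pass with the mouse as a block (adjusted p = 0.0765). Markers of other cell types were low in the 8 RNA-seq libraries against the sorting and HFSC identity markers, which summed to 1218 to 1922 CPM. Summed levels of the other types ran from 1.06 to 13.6 CPM for fibroblasts, 0.272 to 3.16 for immune cells and 0.63 to 1.62 for endothelium. They were 0.529 to 1.45 for sebocytes and 7.58 to 13.6 for melanocytes. Lum, Cd207, Lyz2, Cdh5 and Atoh1 were at 0 in all 8. The melanocyte range lay above that of Prss8, 3.25 to 6.39 CPM. The melanocyte and fibroblast ranges also reached the level of Tmprss4 in untreated HFSCs, 9.65 and 9.39 CPM. In RNA-seq the difference between the mice in N1-AcSpd HFSCs ran opposite to that in the other 3 groups (r across 12256 genes from -0.631 to -0.377), so the mouse labels of these 2 libraries are in doubt, while their group means do not depend on them. In bulk libraries, fewer cells of a type and less RNA per cell cannot be told apart.

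Per kilobase of coding sequence, the order of the RNA levels was led by Spint2, with a mean of 363.9 ± 32.5 CPM per kb (SD over 8 libraries). St14 followed at 59.6 ± 10.4, Spink5 at 39.5 ± 20.7, Spint1 at 24.6 ± 3.09, Tmprss4 at 19.6 ± 13.6 and Prss8 at 5.3 ± 1.04 CPM per kb. The ranges of Spint2, from 313.7 to 399, and of Prss8, from 3.2 to 6.28, overlapped with no other gene. Those of St14, 48.8 to 81.3, and Spink5, 18.9 to 81.9, overlapped each other, as did those of Spink5, Spint1 and Tmprss4. Coding length was used because transcripts that share coding blocks but differ in other exons had identical RNA-seq counts in 99.6% of 6811 pairs, against 3.73% of 92530 pairs with other coding blocks.

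**Figure D1:**
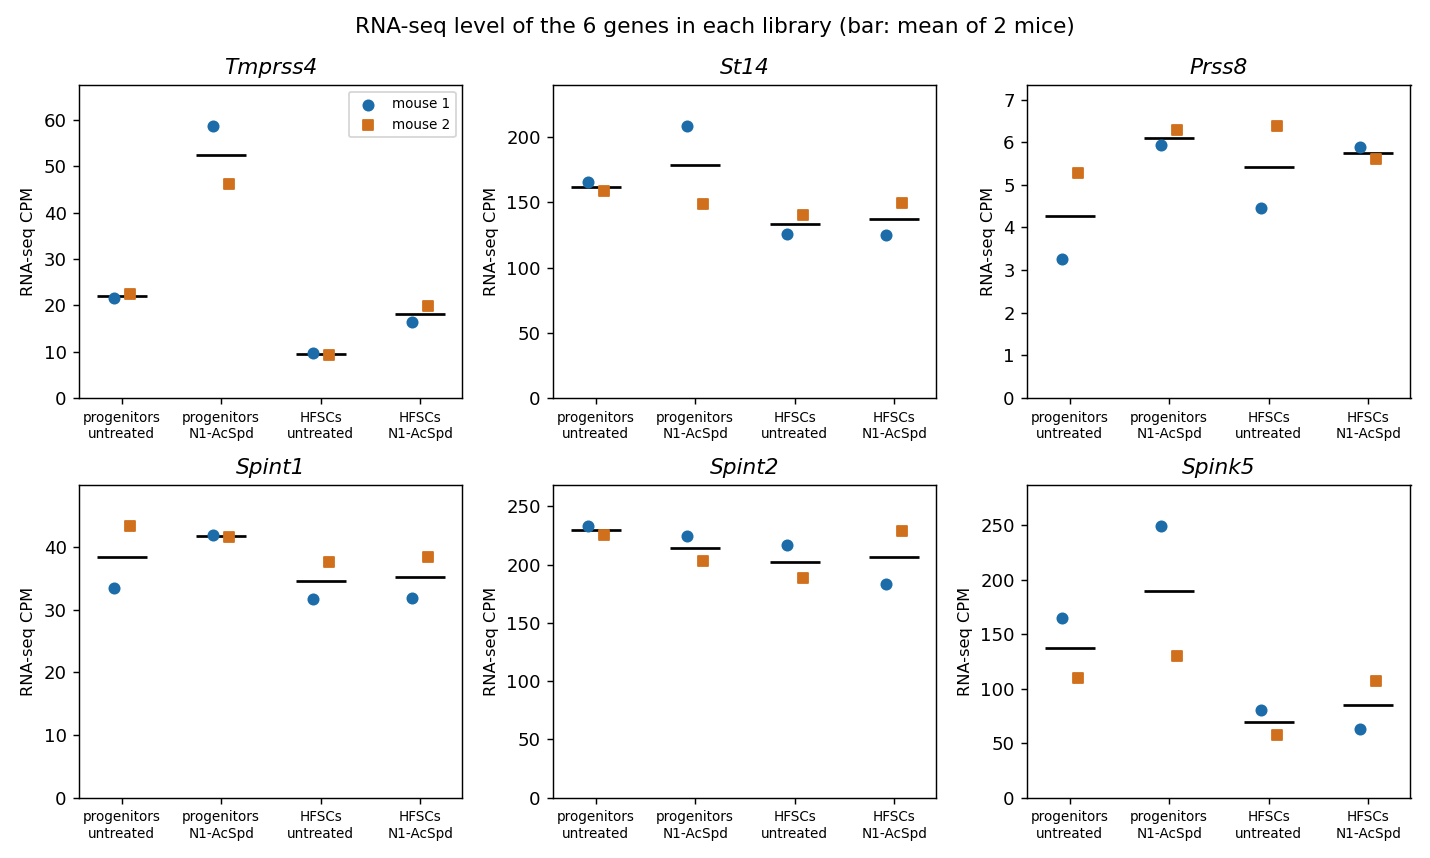
RNA-seq level in CPM of each gene in the 8 libraries, by group on the x axis, with a point for each mouse and a bar for the mean of both. Tmprss4 shows 4 separate levels, lowest in untreated HFSCs (9.39 and 9.65 CPM) and highest in N1-AcSpd progenitors (46.3 and 58.8 CPM), while the points of Spint1 and Spint2 lie close together.

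Tmprss4 RNA was lower in HFSCs than in progenitors and higher after N1-AcSpd. It was 21.5 and 22.4 CPM in untreated progenitors of mouse 1 and mouse 2, 9.65 and 9.39 CPM in untreated HFSCs, 58.8 and 46.3 CPM in N1-AcSpd progenitors and 16.3 and 19.8 CPM in N1-AcSpd HFSCs. The groups overlapped in none of the 4 comparisons, which include the comparison known beforehand and those of the N1-AcSpd effect that share its libraries. Without overlap, both mice move the same way by necessity. Lack of overlap is common: between untreated cells 20.9% of all genes were lower in HFSCs without overlap. For the other comparisons the share over all genes is not given here, so nothing is read from their lack of overlap. Between untreated cells the level was 2.31-fold higher in progenitors, with a log2 fold change of HFSCs over progenitors of -1.20 (SE 0.156, adjusted p = 0.0327 by edgeR's quasi-likelihood test). Of 14224 genes tested, 0.148% passed in this comparison in either direction, and 1 of the 6 members did. Leaving out any 1 of the 4 libraries ended the call, with a log2 fold change between -1.23 and -1.17. Blocking on the mouse gave an adjusted p of 0.0871, which rests on the mouse labels in doubt. With the N1-AcSpd HFSC libraries exchanged between the mice, a pairing chosen after seeing the data, Tmprss4 passed.

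In progenitors N1-AcSpd raised Tmprss4 RNA 2.39-fold. The log2 fold change was 1.26 (SE 0.152, adjusted p = 0.0288), against 0.267% of all genes past the test, and again 1 of the 6 members passed. Log2 ratios within mouse 1 and mouse 2 were 1.45 and 1.05. The call was lost without any 1 of the 4 libraries (adjusted p from 0.0579 to 0.322, log2 fold change from 1.08 to 1.41), with the mouse as a block (adjusted p = 0.0685) and with counts summed over transcripts (adjusted p = 0.0612). This comparison and the untreated one share the untreated progenitor libraries. It also uses the N1-AcSpd progenitor libraries of the comparison known when the gene was picked, so it is not independent of that choice, and the same holds for N1-AcSpd HFSCs. The untreated comparison sets no counts of those libraries against each other. Its test was fitted on the 4 groups together, so its SE and adjusted p also draw on them and are not independent of that choice.

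In HFSCs the Tmprss4 values with N1-AcSpd were 1.9-fold those without, at a log2 fold change of 0.93 (SE 0.156) that did not pass (adjusted p = 0.164). Here edgeR called 0 of 14224 genes, with 1134 at an unadjusted p under 0.05, where DESeq2 called 125. DESeq2 gave Tmprss4 an adjusted p of 0.00103, and edgeR with no minimum count gave 0.0386. Over all alternatives, those without 1 library included, the log2 fold change stayed between 0.78 and 1.03. The effects of N1-AcSpd in the 2 cell types were compared by an interaction term, which was -0.33 for Tmprss4 (SE 0.216, adjusted p = 1) and called 0 genes in edgeR and in DESeq2, with 119 at an unadjusted p under 0.05 in edgeR. Under N1-AcSpd, the comparison known beforehand, the level was 2.9-fold higher in progenitors than in HFSCs (52.5 ± 8.84 against 18.1 ± 2.46 CPM, n = 2). There 0.71% of genes passed, Tmprss4 among them, from which nothing is read here.

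The summed level of keratinocyte differentiation markers ranked the groups as Tmprss4 did. Over 10 genes such as Krt10, Ivl and Lor, it reached 489.6 and 496.5 CPM in untreated progenitors, 1138 and 829.5 CPM in N1-AcSpd progenitors, 245 and 329 CPM in untreated HFSCs and 338 and 463 CPM in N1-AcSpd HFSCs. In progenitors N1-AcSpd raised 1 of the 10, Ivl, a precursor of the cornified envelope, from 21.3 ± 0.438 to 56.2 ± 0.341 CPM (log2 fold change 1.40, adjusted p = 0.00531). The Ivl call ended without untreated progenitors of mouse 1 (adjusted p = 0.182) or mouse 2 (0.0848), and was kept without either N1-AcSpd library (0.047 and 0.0375), with the mouse as a block (0.0309) and with sums over transcripts (0.0307). All 10 had a log2 fold change above 0 there, with a median of 1.62, against a median of 0 over all genes. Of the 6 sorting and HFSC identity markers, 3 lay above 0 and 3 below 0 there. Krt15 alone passed, where 0.267% of all genes did, falling from 178 to 100 CPM (log2 fold change -0.83, adjusted p = 0.0431). It did not pass with the mouse as a block (0.0859) or with sums over transcripts (0.08). In HFSCs with N1-AcSpd, Krt15 was 330 against 720 CPM untreated, which did not pass (log2 fold change -1.12, adjusted p = 0.0544). The part of these differentiation markers in the Tmprss4 result was not tested.

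St14 RNA, for matriptase, differed little between groups. It was 166 and 158 CPM in untreated progenitors, 126 and 140 in untreated HFSCs, 209 and 148 in N1-AcSpd progenitors, and 125 and 150 in N1-AcSpd HFSCs. The untreated groups did not overlap, yet the log2 fold change of HFSCs over progenitors was -0.28 (SE 0.165, adjusted p = 0.663). N1-AcSpd gave 0.14 (SE 0.165, adjusted p = 0.894) in progenitors and 0.05 (SE 0.165, adjusted p = 0.977) in HFSCs, both within the spread between mice.

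Prss8 RNA, for prostasin, was the lowest of the 6, between 3.25 and 6.39 CPM and resting on 80 to 174 counts per library. With N1-AcSpd in progenitors it was 5.94 and 6.28 CPM against 3.25 and 5.29 CPM untreated, a log2 fold change of 0.52 (SE 0.276, adjusted p = 0.674). In HFSCs the groups overlapped.

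Spint1 and Spint2, the Kunitz inhibitors of these proteases, stayed within narrow ranges. Spint1 ran from 31.6 to 43.4 CPM over the 8 libraries, and Spint2 from 184 to 233 CPM. Between untreated cells and with N1-AcSpd in either cell type, their log2 fold changes lay between -0.18 (Spint2, untreated HFSCs over progenitors, SE 0.131, adjusted p = 0.763) and 0.12 (Spint1, N1-AcSpd in progenitors, SE 0.158, adjusted p = 0.91). Neither passed, and a p above the threshold does not show that their levels were equal.

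Spink5 RNA, for LEKTI, differed between the mice in every group. Mouse 1 and mouse 2 had 165 and 110 CPM in untreated progenitors, 80.9 and 57.8 in untreated HFSCs, 249.7 and 129.9 in N1-AcSpd progenitors, and 62.8 and 107 in N1-AcSpd HFSCs. By the labels, mouse 1 was thus the higher in 3 groups and the lower in N1-AcSpd HFSCs, where the mouse labels are in doubt. The log2 ratios of mouse 1 over mouse 2 were 0.58, 0.49, 0.94 and -0.77. Untreated HFSCs lay below untreated progenitors without overlap, at a log2 fold change of -0.99 (SE 0.357) that did not pass (adjusted p = 0.397). Within mouse 1 and mouse 2 the log2 ratios were -1.02 and -0.93. Blocking on the mouse gave an adjusted p of 0.439, which also rests on the labels in doubt. With the N1-AcSpd HFSC libraries exchanged, a pairing chosen after seeing the data, Spink5 passed here. In all, 4 of the 6 genes were lower in untreated HFSCs without overlap, where 20.9% of all genes were.

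**Figure D2:**
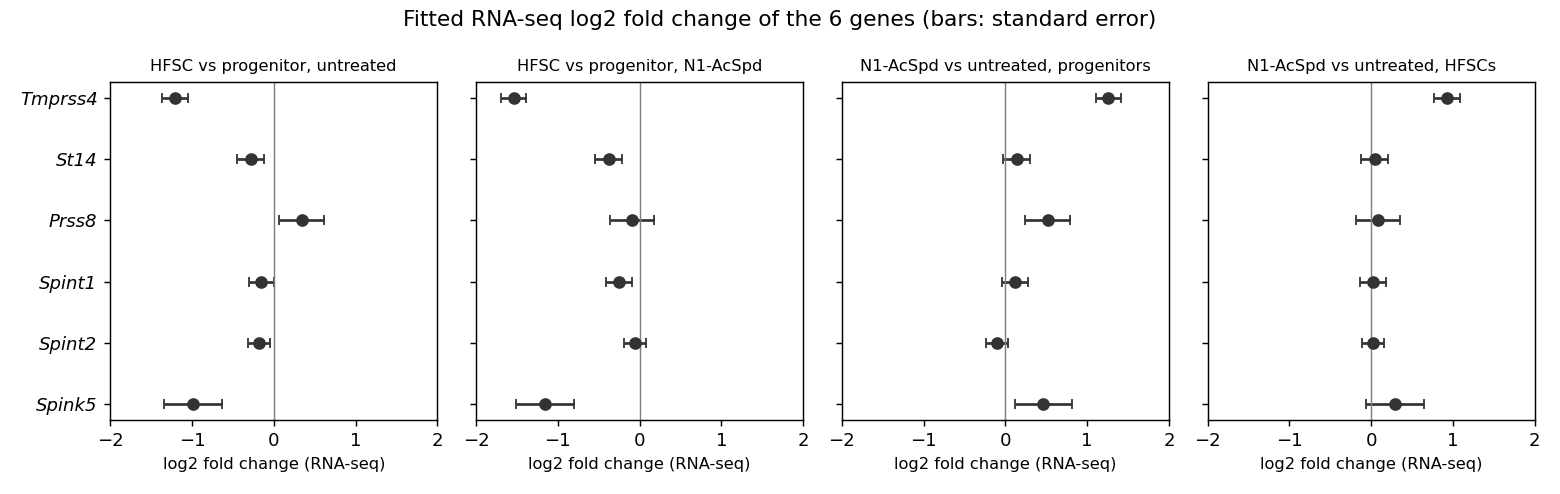
Fitted RNA-seq log2 fold change of the 6 genes (x axis) in 4 comparisons, with the standard error as bars. Tmprss4 stands farthest from 0 in each panel, from -1.54 to 1.26. The -1.54 belongs to N1-AcSpd cells, the comparison known beforehand, from which nothing is read. The panels of the N1-AcSpd effect share libraries with it. The bars of Spink5 are the widest, with standard errors of 0.353 to 0.357.

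Ribosome footprints were sparse. Over the 8 Ribo-seq libraries Spint2 had 330 footprints, Spink5 148, St14 79, Spint1 41, Tmprss4 12 and Prss8 6. For Tmprss4 the counts were 2 and 3 in untreated progenitors, 0 and 4 in untreated HFSCs, 1 and 0 in N1-AcSpd progenitors, and 2 and 0 in N1-AcSpd HFSCs. A count of 0 allows up to 3 footprints, which on the library-scaled CPM scale is 54.9 CPM in untreated HFSCs of mouse 1, 47.3 CPM in N1-AcSpd progenitors of mouse 2 and 48.1 CPM in N1-AcSpd HFSCs of mouse 2, so a change of the size seen in Tmprss4 RNA was not detectable. Spink5 had 5 and 60 footprints in untreated progenitors, 4 and 20 in untreated HFSCs, 19 and 14 in N1-AcSpd progenitors and 22 and 4 in N1-AcSpd HFSCs. In CPM, its untreated progenitor mean was 186 ± 90.5 and its untreated HFSC mean 115 ± 59.2 (n = 2).

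**Figure D3:**
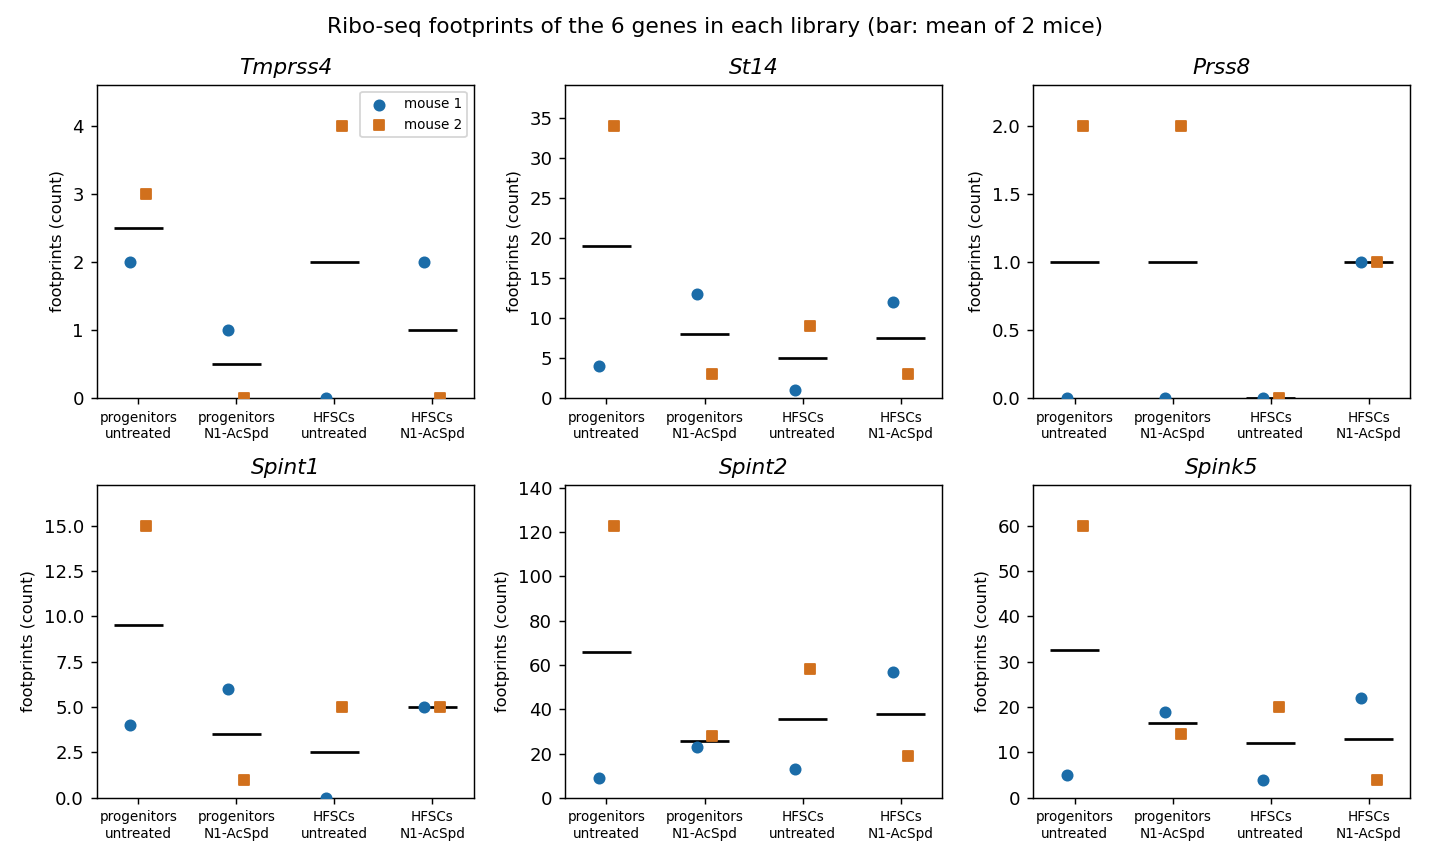
Footprint count of each gene in the 8 Ribo-seq libraries, by group on the x axis, with a point for each mouse and a bar for the mean. Counts are not scaled to depth, which ran from 34475 to 268052 footprints, and Tmprss4 never exceeds 4 and Prss8 never exceeds 2.

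In the 3 footprint comparisons with tests, 5 members were tested and 0 passed edgeR's adjusted p of 0.05, where 1, 2 and 0 of 8440 genes (0.0118%, 0.0237% and 0%) did between untreated cells, with N1-AcSpd in progenitors and with N1-AcSpd in HFSCs. Standard errors of the log2 fold changes ran from 0.466 to 1.98. Translational efficiency, the change in footprints relative to the change in RNA, was tested as an interaction of assay and group. In the 3 comparisons with tests 0 of the 5 members with at least 10 footprints passed, and edgeR and DESeq2 each called 0 genes there. At an unadjusted p under 0.05, edgeR had 460, 506 and 573 genes, which is 5.24%, 5.93% and 6.83% of those tested, and no member was among them.

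Footprints were set against RNA for each gene over all 8 libraries. The ratio of mean Ribo-seq CPM to mean RNA-seq CPM was 0.548 for St14 and 0.585 for Tmprss4, against 1.35 for Spint1, 1.33 for Spink5 and 1.68 for Spint2. Among 7977 genes with at least 10 footprints and 10 RNA-seq counts, these stood at percentiles 15.1, 17, 55.6, 54.7 and 68. In single libraries the log2 ratio ran from -2.78 to -0.16 for St14 and from -0.08 to 1.27 for Spint2, so that St14 lay below Spint2 in 8 of 8 libraries. It ran from -1.40 to 1.55 for Spint1, from -0.74 to 1.44 for Spink5 and from -2.24 to 1.74 for Tmprss4, over the libraries with footprints, and these ranges overlapped each other and those of St14 and Spint2. The Tmprss4 ratio rests on 12 footprints.

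**Figure D4:**
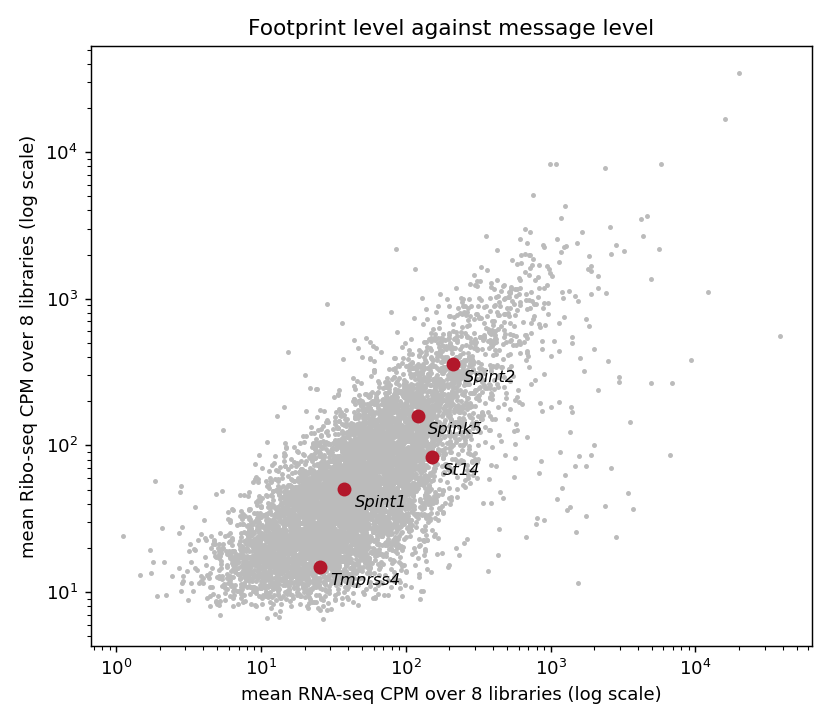
Mean Ribo-seq CPM (y axis, log scale) against mean RNA-seq CPM (x axis, log scale) over 8 libraries, with 7977 genes in all and 5 of the 6 genes in red. St14 (83.7 Ribo-seq CPM) lies below Spink5 (160 CPM) although its RNA-seq level is the higher, 153 against 120 CPM.

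Spint2 has 2 coding transcripts that differ in a coding exon of 171 bases, present in ENSMUST00000098604 and absent from ENSMUST00000108236, the transcript used here. The exon, on the minus strand at chr7:29263595-29263765 of GRCm38, encodes a Kunitz domain, the part of such inhibitors that meets the protease. It is shown because the counts differ little with or without it.
Spint2 exon: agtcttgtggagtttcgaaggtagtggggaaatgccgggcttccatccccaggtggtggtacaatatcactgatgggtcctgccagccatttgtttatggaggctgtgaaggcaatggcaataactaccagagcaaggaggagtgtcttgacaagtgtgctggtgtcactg
Over the 8 RNA-seq libraries the longer transcript held 43632 counts and the shorter 43560. Its surplus was 72 counts, 5 to 17 per library, or 0.421 per base of the exon, where the 585 coding bases of the shorter held 74.5 per base. In Ribo-seq the longer held 295 footprints and the shorter 330, and the longer had fewer in every library, by 1 to 11. How reads across the exon borders were counted is not given in the sources used here, so these differences are net values and not the exon's own reads.

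The wider protease and inhibitor families were described from 6 lists, which include the 6 genes and were chosen with earlier results of these data known. Over all genes, 0.148% passed between untreated cells and 0.267% with N1-AcSpd in progenitors. Kallikreins, secreted proteases of which several cut corneodesmosomes, had the list medians farthest from 0 in the 3 comparisons with tests. With N1-AcSpd in progenitors 3 of the 10 tested passed, all higher: Klk7 from 9.77 ± 1.81 to 45.2 ± 6.98 CPM (log2 fold change 2.21, adjusted p = 0.0329), Klk5 from 2.28 ± 0.121 to 12.7 ± 1.91 CPM and Klk8 from 5.5 ± 0.427 to 15 ± 0.204 CPM. All 3 calls ended without any 1 of the 4 libraries (adjusted p from 0.0892 to 0.385, log2 fold changes from 1.37 to 2.62), with the mouse as a block (0.0575 to 0.101) and with sums over transcripts (0.08 to 0.0822). The list's median log2 fold change was 1.70 there and 1.77 in HFSCs, where 0 passed. Between untreated cells 0 of 10 passed, with all 10 below 0 and a median of -1.74, against -0.005 over all genes. Klk10 (log2 fold change -1.44, adjusted p = 0.0678) and Klk8 (-1.37, adjusted p = 0.0683) had the smallest p.

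Of 21 tested substrates and effectors of these proteases, 3 passed with N1-AcSpd in progenitors, all higher, where 0.267% of all genes passed. These were Cdsn, corneodesmosin, from 22 ± 2.83 to 107 ± 3.39 CPM (log2 fold change 2.29, adjusted p = 0.0329), and the desmosomal cadherins Dsc1, from 15.3 ± 0.778 to 55.9 ± 13.4 CPM, and Dsg1b, from 55.3 ± 7.63 to 132 ± 28.8 CPM. The list's median was 0.07. Between untreated cells 0 passed, 17 of 21 lay below 0 and the median was -0.64, and Dsg1b was at -1.37 (adjusted p = 0.0514). All 3 calls ended without any 1 of the 4 libraries (adjusted p from 0.081 to 0.334, log2 fold changes from 1.01 to 2.42), with the mouse as a block (0.0575 to 0.118) and with sums over transcripts (0.08 to 0.0896).

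Of 14 tested membrane-anchored serine proteases, Tmprss4 was the single gene past the test in untreated cells and with N1-AcSpd in progenitors, where the list's medians were -0.26 and 0.44. In these comparisons 0.148% and 0.267% of all genes passed. Inhibitors passed nowhere in the tested comparisons: 0 of 11 Kunitz and Kazal inhibitors, 0 of 16 serpins and 0 of 14 WAP, cystatin and macroglobulin inhibitors, with medians of 0.16, -0.02 and 0.38 for N1-AcSpd in progenitors. Among them Serpina3n had 175 ± 118 CPM in untreated HFSCs and 12.9 ± 4.92 in untreated progenitors (log2 fold change 3.76, adjusted p = 0.0683). Serpinb6c was at 0.90 (adjusted p = 0.181) and Csta1, a cystatin A, at 0.90 (adjusted p = 0.25) with N1-AcSpd in progenitors.

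**Figure D5:**
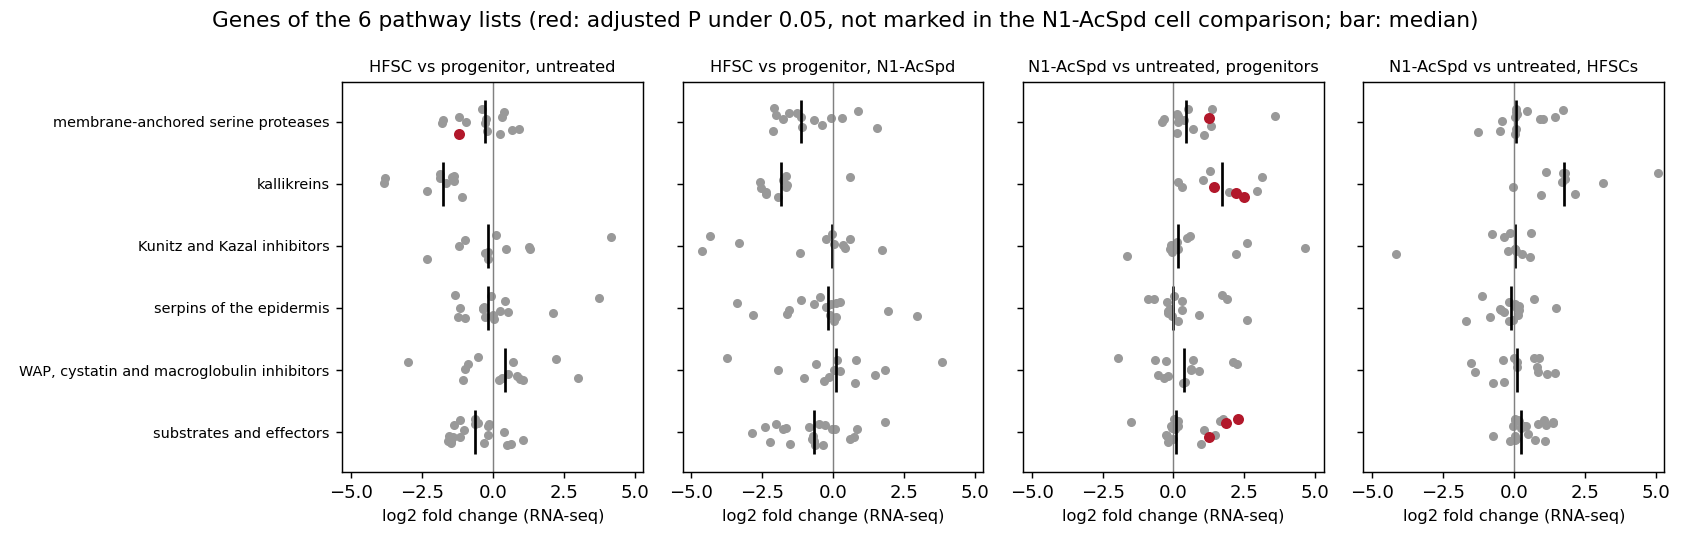
RNA-seq log2 fold change (x axis) of each tested gene of the 6 lists in 4 comparisons, in red where the adjusted p was under 0.05 (not marked between N1-AcSpd cell types), with a bar at the list's median. Kallikreins sit to the left in untreated HFSCs (median -1.74) and to the right with N1-AcSpd in progenitors (median 1.70), where 3 are red.

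The genes whose RNA was most like each member over the 8 libraries were found by Pearson's r of log2(CPM + 1) among 12250 genes. These libraries share groups and mice and include those of the comparison known beforehand, so r is a description. The highest r among 12250 genes is also high in part by selection. It does not compare the size of a change: Wars ran from 48.3 to 66.1 CPM, where Tmprss4 ran from 9.39 to 58.8 CPM. Tmprss4 was nearest to Wars (r = 0.993), Dsg1b (0.993) and Dsc1 (0.992), St14 to Cltb (0.982), Marveld2 (0.976) and Pafah2 (0.974), and Spink5 to Foxn1 (0.988), Ubqln1 (0.982) and Sdr16c5 (0.98). Prss8 was nearest to Ubtd1 (0.979), Fam160b2 (0.949) and Il22ra1 (0.938), Spint1 to Cdipt (0.956), Cisd3 (0.947) and Rnh1 (0.94), and Spint2 to Acp5 (0.976), Slc25a3 (0.96) and Adtrp (0.956). Among the members themselves r was highest for St14 with Spink5 (0.9) and Tmprss4 with Spink5 (0.838), and lowest for Prss8 with Spint2 (-0.583).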

How the data were processed

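RNA-seq and Ribo-seq were made from sorted organoid cells in 16 libraries, 8 per assay and 2 per group. Per the submitters' processing notes, STAR 2.7.3a, Bowtie 1.2.3, featureCounts and GRCm38.p5 were used. The authors deposited unscaled read counts per transcript. The authors' 4 tables of differential translation hold repeats of these counts, scaled values, fold changes and p-values, and were read only for gene names (80 per-sample columns were not used). Each gene was represented by its transcript with the highest footprint sum. CPM is the count divided by the TMM-scaled library size. Fits used edgeR 4.0.16 in R 4.3.3 (quasi-likelihood test, 4 groups of an assay together, mean of at least 1 count, Benjamini-Hochberg adjustment over all genes, threshold 0.05), and DESeq2 1.42.0 as an alternative. In edgeR fits the SE was derived from the test, as the absolute log2 fold change divided by the square root of the F statistic. Translational efficiency was the interaction of assay and group. Intervals of 3 counts cover counting error only, since reads carried no molecular identifiers. Scripts were tested on simulated data.

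The members and the 14 lists were chosen with earlier results of these data known. Named were the 6 members and the 3 genes most like each member. From each list and comparison, up to 4 genes past the test with the smallest p (otherwise up to 2) could be named. Those of the comparison known beforehand were left out. Genes past the test by this rule are named, and not all of the others are. Replicate numbers name the donor mouse in the labels and so pair the samples. Differences between the mice correlated at 0.355 to 0.674 among 3 RNA-seq groups (12256 genes), and at -0.631 to -0.377 between each of these and N1-AcSpd HFSCs. Alternatives were another minimum count, RLE scaling, DESeq2, the mouse as a block, sums over transcripts and leaving out each library.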

Additional observations from a re-analysis of the deposited data

How the results depend on the processing

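With 2 mice per group, calls of these genes changed with several settings. Members past the test between untreated cells were 1, and 0 with the replicate block and without any 1 library. For N1-AcSpd in progenitors they were 1, and 0 with the replicate block, with sums over transcripts and without any 1 library. For N1-AcSpd in HFSCs they were 0, and 1 with no minimum count and with DESeq2. The comparison known beforehand had 1, and 0 to 1 without 1 library, from which nothing is read.

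Genes called in RNA-seq numbered 21, 101, 38 and 0 (untreated cells, N1-AcSpd cells, N1-AcSpd in progenitors, N1-AcSpd in HFSCs). These became 167, 262, 111 and 43 with no minimum count, 268, 377, 174 and 125 with DESeq2, and 3, 44, 7 and 0 with the replicate block for the pairing by mouse. With sums over transcripts, N1-AcSpd in progenitors gave 1. Leaving out 1 library gave 1 to 7, 2 to 35, 0 to 3 and 0 to 4. Blocking with the N1-AcSpd HFSC RNA-seq libraries exchanged between the mice, a pairing chosen after seeing the data, made 750, 926, 447 and 267 calls, with 2, 2, 1 and 1 members (Tmprss4, and Spink5 where there were 2).

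Footprint calls were 1, 2, 2 and 0. They became 3 and 5 with RLE between untreated and N1-AcSpd cells, 2, 1 and 0 with DESeq2, and 0, 0 and 0 with sums over transcripts, and 0 for N1-AcSpd cells at a minimum mean of 10 counts. Without 1 library they ran 0 to 15, 0 to 2, 0 to 13 and 0 to 1. Translational efficiency calls were 0 in all 4, then 5 with the replicate block (exchanged or not) for N1-AcSpd in progenitors, and 1 with no minimum, with RLE and with the exchanged block in HFSCs. Without 1 library they ran 0 to 1 between untreated cells, 0 to 2 in progenitors and 0 to 4 in HFSCs. The causes were not tested.

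RNA-seq log2 fold changes that changed sign without 1 library ran as follows. Between cell types they were -0.33 to 0.058 for Spint1 untreated and -0.22 to 0.082 for Spint2 under N1-AcSpd. For N1-AcSpd in progenitors they were -0.13 to 0.36 for St14, -0.057 to 0.32 for Spint1 and -0.081 to 0.85 for Spink5. For N1-AcSpd in HFSCs they were -0.090 to 0.14 for St14, -0.18 to 0.37 for Prss8, -0.12 to 0.15 for Spint1, -0.14 to 0.15 for Spint2 and -0.14 to 0.60 for Spink5. For the interaction they were -0.33 to 0.17 for St14, -0.31 to 0.081 for Spint1, -0.042 to 0.25 for Spint2 and -0.61 to 0.38 for Spink5. Tmprss4 kept its direction in each RNA-seq comparison and alternative run. In footprints its log2 fold change crossed 0 between untreated cells (-4.25 to 0.63), between N1-AcSpd cells (-2.61 to 3.10) and with N1-AcSpd in HFSCs (-4.01 to 3.01). The translational efficiency of Tmprss4 also crossed 0 between untreated cells (-9.96 to 1.97). Footprint depth limits every statement on translation of these genes.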
